A study of Mus musculus with 12 samples.

Results

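The genes described here encode the proteasome, the protease complex that degrades ubiquitin-tagged proteins, in endothelial cells of the mouse brain. They were chosen by symbol, as the genes named Psma, Psmb, Psmc, Psmd, Psme, Psmf or Psmg with a number, without Psmb8 and Psmb9 and with a mean of at least 10 normalized counts over the 12 samples. The table holds 24015 genes, of which 46 matched by symbol and 45 of these had that level. The thymic subunit Psmb11 was at 0 in every sample and was left out. The 45 comprise 16 core genes (Psma and Psmb), 24 cap genes (Psmc, Psmd and Psme) and 5 others (Psmf1 and Psmg1 to Psmg4). Not all are subunits: Psmd5, Psmd9 and Psmd10, Psmg1 to Psmg4 and Psmf1 encode assembly chaperones or regulators.

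RNA was measured by RNA-seq in wild-type C57BL/6 mice aged 19 months (old, 6 samples) and 3 months (young, 6 samples). For each sample the cortex and hippocampus of 2 mice were pooled and endothelial cells, which line the blood vessels, were sorted by flow cytometry. Whether each pool came from its own animals is not stated in the labels; a p-value here measures spread among these 12 samples, which may be technical. All samples share strain, genotype and preparation, and differ in the labels only by age.

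In the proteasome, stacked rings form a barrel, the core, in which proteins are cut. The outer rings are built of alpha subunits (Psma), which gate the entrance, and the inner rings of beta subunits (Psmb), some of which carry the protease sites. Caps on the ends recognise ubiquitin, unfold the substrate with a ring of ATPases (Psmc) and feed it in. Interferon induces alternative catalytic subunits and the activator PA28 (Psme1 and Psme2), which change the peptides made for MHC class I. In mammals the transcription factor NRF1, the product of Nfe2l1, raises the expression of subunit genes when proteasome activity falls short, by binding antioxidant response elements.

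The libraries held 25809499 to 40393814 reads in genes. For the markers that follow, higher and lower mean called in old samples at an adjusted p under 0.05, by the limma test described below. Over all genes tested, 3.73% were called higher and 3.21% lower. The summed level of 10 endothelial markers ran from 594197 to 833303 normalized counts in old and from 644953 to 833590 in young samples, with 0 higher and 1 lower (Cdh5). Mural markers (12 genes of pericytes and smooth muscle) summed to 1231 to 12410 in old and 3043 to 19004 in young samples, with 0 higher and 2 lower (Acta2 and Myh11). Astrocyte markers (12 genes) summed to 12160 to 47436 in old and 7340 to 39215 in young samples, with 1 higher (Aldoc) and 0 lower. Markers of microglia and macrophages (12 genes, 9 tested) summed to 1524 to 2303 in old and 1350 to 1679 in young samples. Those of neurons (12 genes, 6 tested) summed to 134 to 1065 in old and 216 to 547 in young samples. Those of the oligodendrocyte lineage (12 genes, 9 tested) summed to 2208 to 11029 in old and 1638 to 7278 in young samples. In each of these lists 0 genes were higher and 0 lower. The microglial markers Aif1, Mrc1 and Trem2 had means under 10, as did the neuronal Rbfox3, Syt1, Tubb3, Slc17a7, Gad2 and Nefm and the oligodendrocyte markers Mog, Cldn11 and Sox10. The 10 blood markers summed to 90.2 to 9108 in old and 1729 to 7714 in young samples, with 3 tested, 0 higher and 0 lower. The haemoglobin genes and Cd3e among them were at 0, and Ptprc and S100a8 had means under 10. The 8 fibroblast markers summed to at most 600.1, with 1 lower (Ogn). Their part in the results below was not tested. In such pooled cell RNA, fewer cells of a type and less RNA per cell cannot be told apart.

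Within each age, single libraries stood apart in many of these genes at once. Old 7 and old 9 each lay above the 12-sample median in 40 of the 45 genes, young 1 in 39 and young 9 in 31, whereas young 5 did so in 3, and old 3 and young 4 in 9 each. The summed level of the core genes was 59358, 65225, 61647, 66692, 90667 and 93049 normalized counts in old 1, 2, 3, 4, 7 and 9. In young 1, 2, 3, 4, 5 and 9 it was 65837, 58608, 65076, 57210, 52826 and 75783. The ages overlapped: 4 old samples lay within the young range, and only old 7 and old 9 lay above it. The cap genes summed to 111887, 108761, 100270, 107977, 134627 and 135278 in the same old samples and to 124060, 111952, 113269, 108673, 104264 and 121850 in the young. Here too old 7 and old 9 were highest, and old 3 was the lowest of all.

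The samples that were high in core genes also differed in how their values changed with the GC content of transcripts. The slope of a sample's log2 deviation per 10 percentage points of GC was -0.16 in old 9, -0.17 in young 9 and -0.08 in old 7, and between -0.02 and 0.13 in the other 9. Young 1, which had 39 genes above the median, had a slope of 0.11. Median GC was 48.9% for the core, 49.7% for the cap and 50.4% for the 11806 tested genes matched to a transcript. In old 7, old 9 or young 9, 33 of the 45 genes had their highest value, among them 14 of 16 core and 16 of 24 cap genes. With a linear trend on GC and length removed from each sample, the median log2 difference (old minus young) was 0.06 over the core genes, 9 of 16 above 0, and -0.04 over the cap genes, 9 of 24 above 0. The mean GC slope was -0.0015 in old and 0.0015 in young samples. GC and length were removed together, and their parts in that change were not separated. What part either trend has in the differences below was not tested otherwise.

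**Figure D1:**
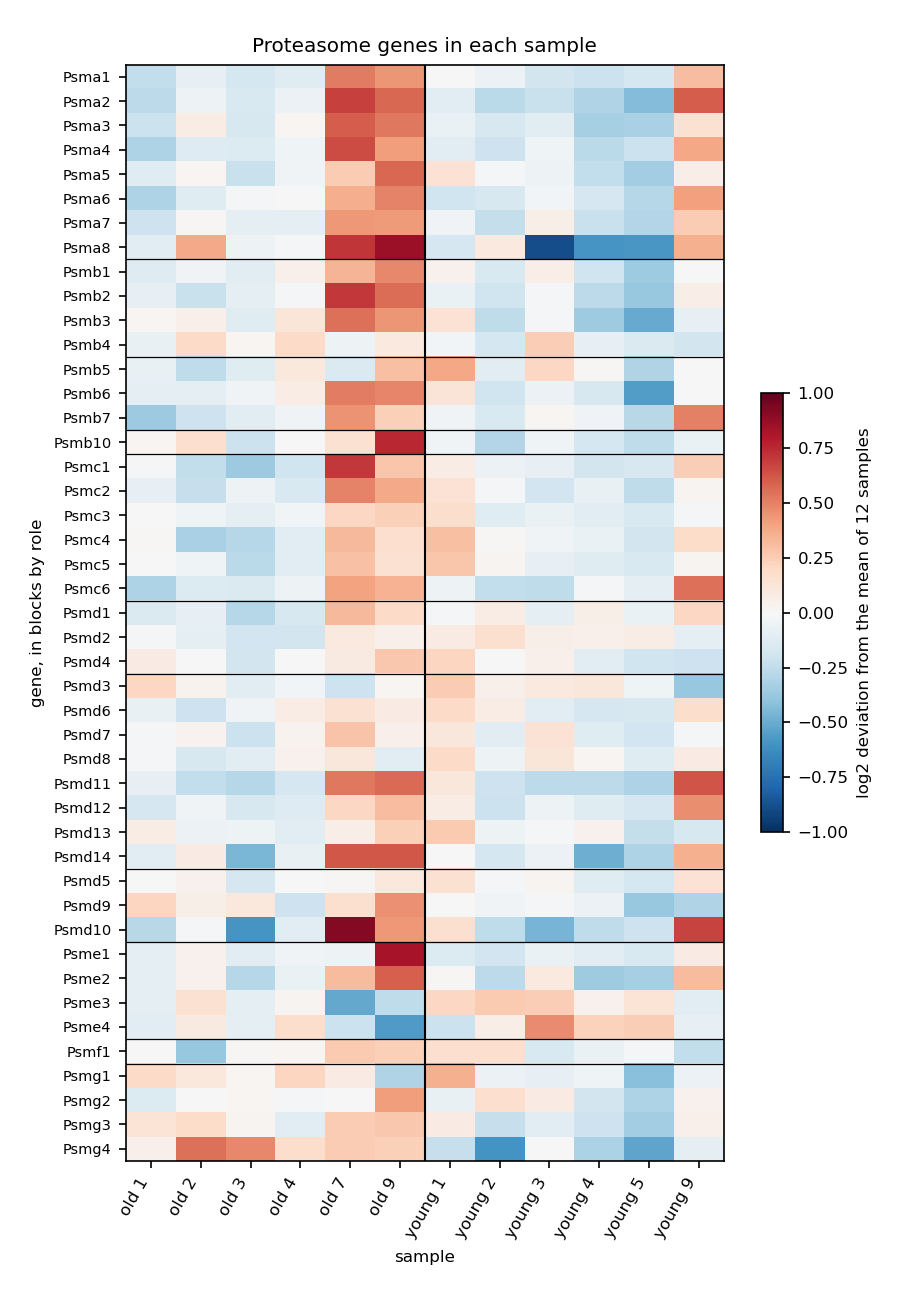
Deviation of each gene from its own mean over the 12 samples (log2 scale, colour), with samples in columns, old to the left of the line, and genes in blocks by role. The columns of old 7 and old 9 are red over the whole alpha ring, and young 9 mostly more faintly, while young 5 is blue in most rows.

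**Figure D2:**
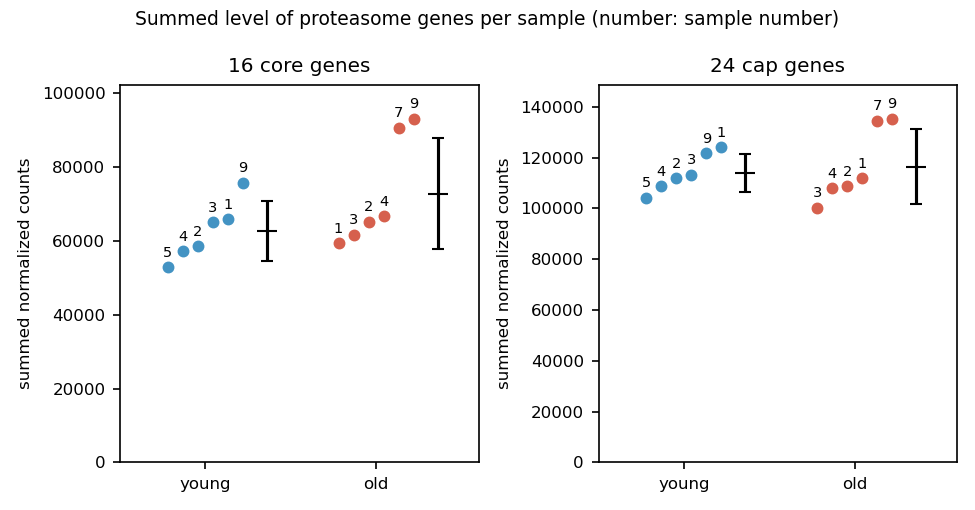
Summed normalized counts of the 16 core genes and of the 24 cap genes in each sample (numbers are the sample numbers of the labels; dash and bar are mean and SD, n = 6 each). Old 7 and old 9 lie above every other sample in both panels, and the remaining old samples lie among or below the young ones.

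Of the 45 genes, 1 passed the test between the ages. Psmg4, an assembly chaperone of the core, was higher in old samples, and 0 of the 16 core and 0 of the 24 cap genes passed the threshold in either direction. The test was limma on log2(normalized count + 1), p-values were adjusted by Benjamini-Hochberg across the 12777 genes that entered it, and 0.05 was the threshold. In all, 6.94% of those genes passed, 3.73% as higher and 3.21% as lower in old samples, so the single call among 45 members is under that background. By edgeR and by DESeq2 on the recovered reads, which called 6.05% and 10.2% of the genes they tested, the counts were the same: 1 member higher, 0 lower, and 0 in core and cap. An unadjusted p under 0.05 was found for 6 members (5 higher, 1 lower), of which 3 are core genes and 2 are cap genes, against 23.8% of all genes tested.

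Differences lay mostly a little above 0 in the core and around 0 in the cap. The median log2 difference (old minus young) was 0.18 over the core genes, 14 of which lay above 0, and 0.05 over the cap genes, 15 of which lay above 0. Over all genes tested it was -0.01, with 6249 of 12777 above 0. The 95% confidence intervals of the cap genes ran from -0.55 at the lowest to 0.63 at the highest on the log2 scale. The lower end belongs to the activator Psme4 and the upper end to the assembly chaperone Psmd10. Those of the core genes ran from -0.34 to 1.08, where the upper end belongs to Psma8. The median standard error was 0.14 in the core and 0.12 in the cap, against 0.17 over all genes tested. Without old 7, old 9 and young 9, the core median was 0.07 with 13 of 16 above 0. The cap median was then -0.03 with 5 of 24 above 0. Those samples hold the highest values of 33 of the 45 genes, so leaving them out is not an independent check. Whether core and cap differ from each other was not tested.

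**Figure D3:**
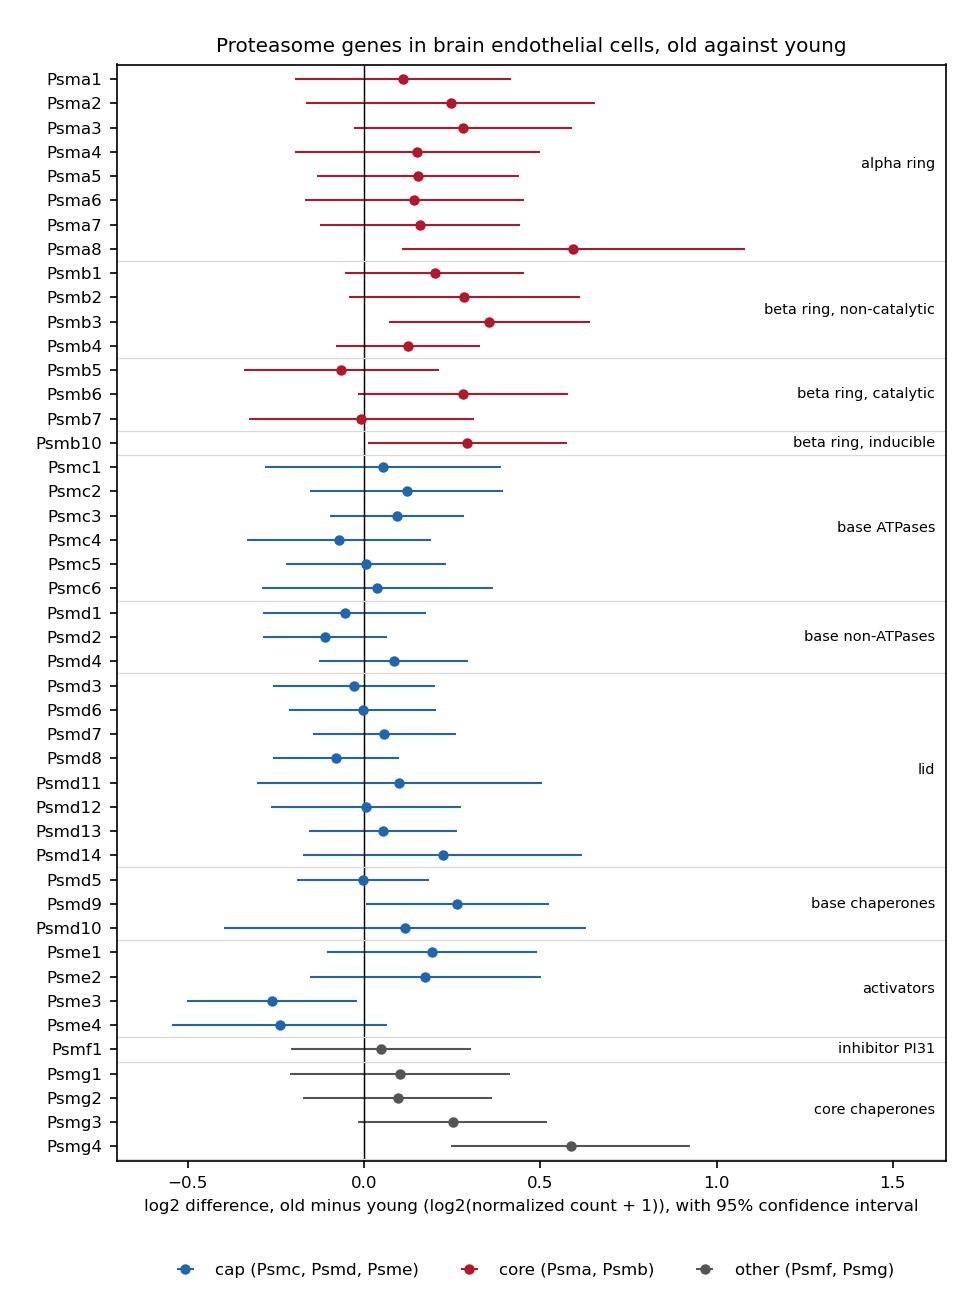
Log2 difference between old and young samples (old minus young, on the scale log2(normalized count + 1)) for the 45 genes, grouped by role. Points are the fitted differences and bars their 95% confidence intervals (6 old and 6 young samples); Psmg4 at 0.59 is the only gene past the threshold.

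Psmg4 was the only member past the threshold. With Psmg3 it forms a chaperone pair that helps build the alpha ring. Its normalized counts were 305, 431, 412, 333, 352 and 347 in old 1, 2, 3, 4, 7 and 9, and 251, 194, 295, 236, 203 and 276 in young 1, 2, 3, 4, 5 and 9. The lowest old value lay just above the highest young one, so the groups did not overlap, as in 4.29% of all genes tested (2.18% with old higher). Old 7 and old 9 were not the highest here. Old samples averaged 363 ± 48.3 and young samples 243 ± 39.6 (SD, n = 6 per age). The fitted fold, 1.5, had 95% limits of 1.19 and 1.90 (log2 difference 0.59, limma adjusted p = 0.0377; edgeR adjusted p = 0.0362, DESeq2 adjusted p = 0.00469). It had the lowest level of the members before correction for length, with 164 to 458 reads per sample. The call was close to the threshold: without old 7, old 9 and young 9 the log2 difference was 0.65 with an adjusted p of 0.0567, and after removal of the trend on GC and length it was 0.36 with an adjusted p of 0.254. It was also lost without any 1 of 8 samples (old 2, 3, 7 or 9, young 1, 2, 4 or 5), with adjusted p from 0.0539 to 0.0866.

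The partner Psmg3 had 485, 585 and 633 in old and 411, 470 and 555 in young samples (log2 difference 0.25, adjusted p = 0.238), and all 6 old samples lay above the young median. Psmg1 and Psmg2, the other chaperone pair of the alpha ring, had log2 differences of 0.10 and 0.10 (adjusted p = 0.706 and 0.682). Psmg2 had 680, 751 and 1003 in old and 603, 740 and 839 in young samples.

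Promoters of 3 members are shown, from 250 bases before to 50 after the annotated start (RefSeq, build GRCm38.p6): Psmg4, the only gene called; Psmb3, the core gene with the largest difference among those with an entry; and Psmb6, a catalytic subunit whose window holds an antioxidant response element. They lie at chr13:34162714-34163013, chr11:97703184-97703483 and chr11:70525107-70525406, all on the plus strand. Capitals mark the searched motifs, TGACNNNGC for the antioxidant response element and CCAAT for the CCAAT box, on both strands and with overlaps allowed.
Psmg4: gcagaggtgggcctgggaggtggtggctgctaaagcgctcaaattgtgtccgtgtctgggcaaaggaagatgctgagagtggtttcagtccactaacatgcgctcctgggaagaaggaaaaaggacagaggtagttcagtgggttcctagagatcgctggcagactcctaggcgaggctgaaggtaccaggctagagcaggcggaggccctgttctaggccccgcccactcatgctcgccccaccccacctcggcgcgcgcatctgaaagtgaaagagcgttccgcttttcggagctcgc
Psmb3: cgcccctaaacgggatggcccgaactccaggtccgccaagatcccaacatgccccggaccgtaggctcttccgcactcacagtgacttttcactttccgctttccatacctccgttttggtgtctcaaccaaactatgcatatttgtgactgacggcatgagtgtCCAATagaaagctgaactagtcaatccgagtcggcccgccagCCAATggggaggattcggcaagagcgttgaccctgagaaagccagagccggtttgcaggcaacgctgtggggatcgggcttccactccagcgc
Psmb6: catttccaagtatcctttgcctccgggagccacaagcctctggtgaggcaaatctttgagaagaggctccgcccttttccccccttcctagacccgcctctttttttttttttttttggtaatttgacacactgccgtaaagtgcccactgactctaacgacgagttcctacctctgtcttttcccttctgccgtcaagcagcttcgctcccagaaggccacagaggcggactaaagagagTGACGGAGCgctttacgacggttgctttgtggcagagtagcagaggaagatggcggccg
The Psmg4 window holds neither motif, that of Psmb3 holds 2 CCAAT boxes and that of Psmb6 holds 1 antioxidant response element. Of 37 members with an entry, 6 held TGACNNNGC (16.2%), namely Psmb5, Psmb6, Psmc6, Psmd9, Psmd12 and Psme4, against 14% of 27025 genes and 17% of the 9626 tested genes with an entry. CCAAT was found in 12 members (32.4%), against 41.1% of all genes with an entry and 43% of those tested. Psma8, Psmb1, Psmb2, Psmb7, Psmc3, Psmd3, Psmd7 and Psmg2 had no entry.

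The alpha ring had all 8 genes above 0, from 0.11 (Psma1) to 0.59 (Psma8), and 0 called. Over all genes tested, 48.9% lay above 0. With the trend on GC and length removed, 4 of the 8 lay above 0, with a median of 0.007. Psma1 had a lowest, median and highest value of 4089, 4502 and 6923 normalized counts in old and 4174, 4457 and 5997 in young samples. The groups overlapped, and the highest values were those of old 7 and old 9. Each of the 8 alpha genes was highest in old 7 or old 9. Psma8, the paralog of Psma7 known from meiotic cells of the testis, had 604, 744 and 1176 in old and 350, 505 and 831 in young samples. Its old samples all lay above the young median, but the groups overlapped, and it did not pass (log2 difference 0.59, 95% interval 0.11 to 1.08, adjusted p = 0.127). At least 304 reads stood behind each Psma8 value. The transcripts of Psma7 and Psma8 align over 755 bases at 75.0% identity, and their longest identical run is 17 bases.

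The beta subunits without protease sites, Psmb1 to Psmb4, all lay above 0, with a median of 0.24 and 0 called. With the trend on GC and length removed, 3 of the 4 did, with a median of 0.10. Psmb3 had 4505, 5193 and 7159 normalized counts in old and 3452, 4365 and 5400 in young samples as lowest, median and highest. Every old sample lay above the young median and the groups overlapped (log2 difference 0.36, 95% interval 0.07 to 0.64, adjusted p = 0.12). Psmb4 moved least of these, with 2928, 3217 and 3531 in old against 2720, 2855 and 3653 in young samples (0.13, adjusted p = 0.445). Its highest value of all was that of young 3.

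The catalytic subunits did not lie on one side. Psmb6, the caspase-like site, had 4694, 5101 and 7175 in old and 3411, 4674 and 5513 in young samples (log2 difference 0.28, adjusted p = 0.234). Psmb7, the trypsin-like site, had 2125, 2598 and 3731 in old and 2253, 2665 and 3872 in young samples (-0.01, adjusted p = 0.984). Psmb5, the chymotrypsin-like site and the main target of bortezomib, had 1131, 1260 and 1661 in old and 1094, 1354 and 1761 in young samples (-0.06, adjusted p = 0.804). The interval for Psmb5 ran from -0.34 to 0.21, that is from 0.79-fold to 1.16-fold.

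The interferon-inducible genes of the complex were highest in 1 library, old 9. This was not particular to them: 13 of the 45 members were highest in old 9, 5 of them core genes. Psmb10, which replaces Psmb7 in the immunoproteasome, had 4138, 5096 and 8097 in old and 3917, 4411 and 4671 in young samples (log2 difference 0.29, 95% interval 0.01 to 0.58, adjusted p = 0.194). The value of 8097 was that of old 9, and the other old samples reached at most 5398. Psme1, a subunit of PA28, had 5456, 5697 and 10405 in old and 5135, 5391 and 6215 in young samples. Psme2, its partner, had 4229, 5124 and 7829 in old and 4033, 4759 and 6410 in young samples. Both were likewise highest in old 9, against at most 6052 and 6440 in the other old samples. Their log2 differences were 0.19 (adjusted p = 0.418) and 0.17 (adjusted p = 0.522). Without old 9 the log2 differences of Psmb10, Psme1 and Psme2 were 0.17, 0.05 and 0.07. Psmb8 and Psmb9, the remaining inducible catalytic subunits, which the choice of genes leaves out, ran from 4496 to 10475 and from 1773 to 5224 in old samples, and from 3862 to 5088 and 1295 to 1942 in young. Neither passed in limma (log2 differences 0.47 and 0.62, adjusted p = 0.0911 and 0.0841) or edgeR (0.0859 and 0.0745), and both did in DESeq2 (adjusted p = 0.0361 and 0.0235). Without old 9 their log2 differences were 0.32 and 0.40 (limma adjusted p = 0.11 and 0.0612). All 6 old samples lay above the young median for Psme1, Psmb8 and Psmb9, and 5 of 6 did for Psmb10 and Psme2. The groups overlapped for each of these genes.

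The other activators lay on the opposite side. Psme3, the nuclear activator PA28 gamma, had 2208, 2934 and 3485 in old and 2897, 3539 and 3763 in young samples. None of the 6 old samples exceeded the young median, yet the groups overlapped and the gene did not pass (log2 difference -0.26, 95% interval -0.50 to -0.02, adjusted p = 0.175). It was the member with the lowest log2 difference. Psme4, which encodes PA200, had 854, 1185 and 1433 in old and 1090, 1409 and 1756 in young samples (-0.24, adjusted p = 0.328). Old 7 had the lowest value of Psme3 and old 9 that of Psme4, the same samples in which core genes were highest.

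**Figure D4:**
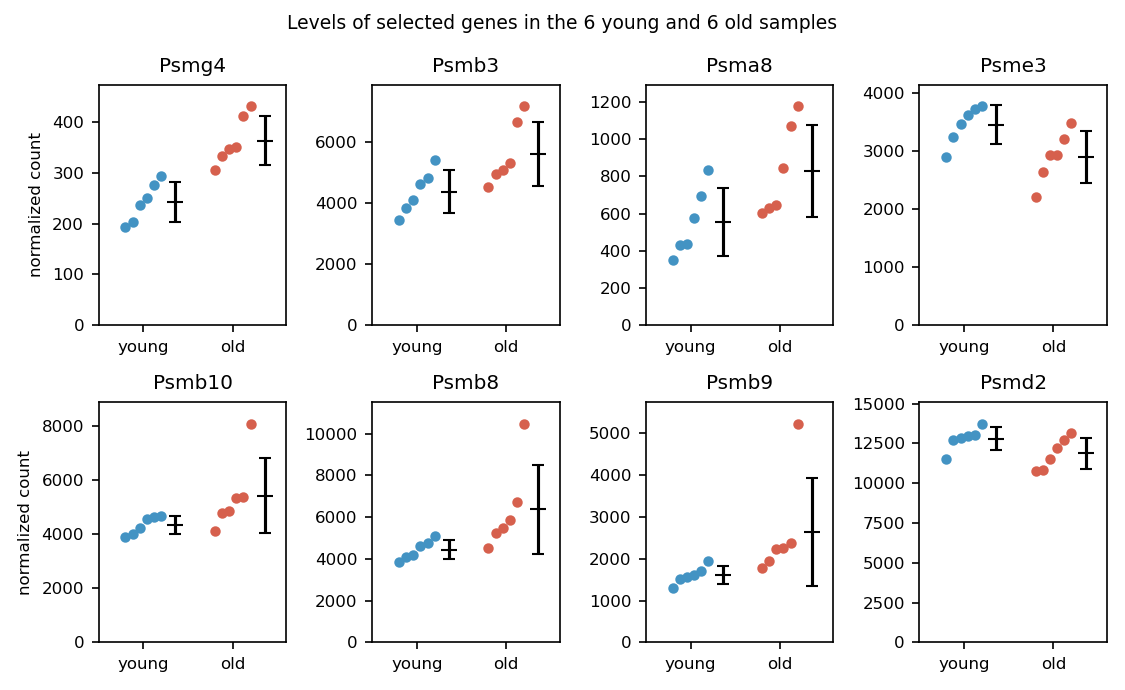
Normalized counts of 8 genes in each of the 6 young and 6 old samples (points, ordered by value), with mean and SD at the right of each group; each vertical axis starts at 0. Psmg4 is the only one of them whose old and young points do not overlap, and a single old sample (old 9) lies far above the rest for Psmb10, Psmb8 and Psmb9.

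In the cap, the 6 ATPases of the base, which unfold substrates, ranged from -0.07 to 0.12 with a median of 0.05. Psmc2 had 4815, 5388 and 7930 in old and 4726, 5448 and 6233 in young samples (log2 difference 0.12, adjusted p = 0.599). Psmc4 had 3832, 4634 and 6016 in old and 4223, 4754 and 5919 in young samples (-0.07, adjusted p = 0.762). For both, 3 of 6 old samples lay above the young median. The base scaffold Psmd2 had the highest level before correction for length, with 10788, 11869 and 13152 in old and 11512, 12892 and 13744 in young samples (-0.11, adjusted p = 0.438). The ubiquitin receptor Psmd4 had 4527, 5293 and 6203 in old and 4456, 4939 and 5979 in young samples (0.08, adjusted p = 0.64).

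The lid removes ubiquitin chains from substrates. The 8 lid genes among the 45 chosen by symbol ranged from -0.08 to 0.22 with a median of 0.03. Psmd14, the deubiquitinase of the lid, had 1523, 2104 and 3218 in old and 1497, 1931 and 2676 in young samples (0.22, 95% interval -0.17 to 0.62, adjusted p = 0.49). Its 2 highest values were again those of old 7 and old 9. Psmd8 had 4094, 4383 and 4937 in old and 4208, 4730 and 5201 in young samples (-0.08, adjusted p = 0.599). Among the chaperones that assemble the base, Psmd9 had 967, 1223 and 1534 in old and 857, 1081 and 1115 in young samples (0.26, adjusted p = 0.202). Psmd5 had the smallest difference of all, with 2520, 2840 and 3043 in old and 2508, 2835 and 3137 in young samples (0.00, 95% interval -0.19 to 0.19, adjusted p = 0.993). Psmf1, which encodes the proteasome-binding protein PI31, had 1460, 1921 and 2286 in old and 1608, 1849 and 2139 in young samples (0.05, adjusted p = 0.843).

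Levels of the members were compared per kilobase of transcript, over all 12 samples. Psma6 (7374 normalized counts per kilobase), Psma7 (7229), Psmb3 (6513) and Psmb6 (6426) were highest, and Psme4 (198), Psma8 (408) and Psmd9 (435) were lowest. By age, Psma8 stood at 489 in old samples, above Psmd9 and Psmg1 at 475 each, and at 327 in young samples, below both. RNA of the catalytic subunits was unequal, at 6426 for Psmb6, 2393 for Psmb7 and 1516 for Psmb5. A complex without inducible subunits holds these proteins in equal number, but protein was not measured. Psmb8 and Psmb9 were not compared per kilobase. The inducible Psmb10, at 3731, exceeded Psmb7, which it replaces. The core chaperones Psmg1 to Psmg4 lay between 460 and 712 per kilobase, and Pomp, a further one, was not compared per kilobase. Lengths are those of a principal transcript in GENCODE M21, which may differ from the annotation the authors counted with.

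Genes around the proteasome were taken from 4 lists. The lists cover other proteasome proteins, transcriptional control, ubiquitin and E1 enzymes, and shuttle factors with cofactors of the p97 unfoldase. Of their 44 tested genes, 0 were higher and 1 was lower in limma, which called 6.94% of all genes tested. In edgeR 0 passed and in DESeq2 1, and the median log2 difference was -0.03. Before adjustment, 6 of these 44 genes had p under 0.05 (1 higher, 5 lower), against 23.8% of all genes tested. The gene that fell was Ubqln1, which encodes ubiquilin 1, a factor that carries ubiquitinated proteins to the proteasome. It had 5558, 6725 and 7889 normalized counts in old and 7736, 8481 and 8956 in young samples (log2 difference -0.34, 95% interval -0.54 to -0.14, adjusted p = 0.0383). The groups overlapped through old 3 alone, which lay above the young values of samples 1 and 9. By edgeR it did not pass (adjusted p = 0.059), and by DESeq2 it did (adjusted p = 0.00807). Without old 7, old 9 and young 9 its log2 difference was -0.31 (limma adjusted p = 0.0629). It was also lost without any 1 of 8 samples (old 1, 2, 7 or 9, young 2, 3, 4 or 5), with adjusted p from 0.0511 to 0.0878.

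On the separate lists, 0 of 12 other proteasome proteins, 0 of 12 genes of transcriptional control (11 in edgeR) and 0 of 6 ubiquitin and E1 genes passed in limma, edgeR or DESeq2, with 1, 0 and 1 at an unadjusted p under 0.05. On the list of shuttle factors and p97 cofactors, 1 of 14 genes (Ubqln1) passed in limma, 0 in edgeR and 1 in DESeq2. Vcp, which encodes p97 itself, was on the list of transcriptional control (log2 difference -0.007, limma adjusted p = 0.972). The median log2 difference on the shuttle list was -0.18, with 8 of 14 below 0. Of these 14 genes, 4 had an unadjusted limma p under 0.05, all lower. Over all genes tested, 23.8% had such a p in either direction and 12.1% as lower. The gene of smallest p on the list of transcriptional control was Syvn1, a ubiquitin ligase of the endoplasmic reticulum (log2 difference -0.28, adjusted p = 0.276). On the first it was Ube3c, a ubiquitin ligase that binds the proteasome (log2 difference -0.38, adjusted p = 0.149). Rps27a, a gene that encodes ubiquitin fused to a ribosomal protein, had the smallest p on the third (0.47, adjusted p = 0.123), and it rose in the comparison without old 1 (0.61, adjusted p = 0.022). Nfe2l1 averaged 12533 ± 3344 in old samples against 14810 ± 2157 in young ones (SD, n = 6 per age; log2 difference -0.28, adjusted p = 0.336). Pomp, the chaperone that completes the core, differed by 0.15 (adjusted p = 0.604) and the ubiquitin receptor Adrm1 by 0.02 (adjusted p = 0.935).

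**Figure D5:**
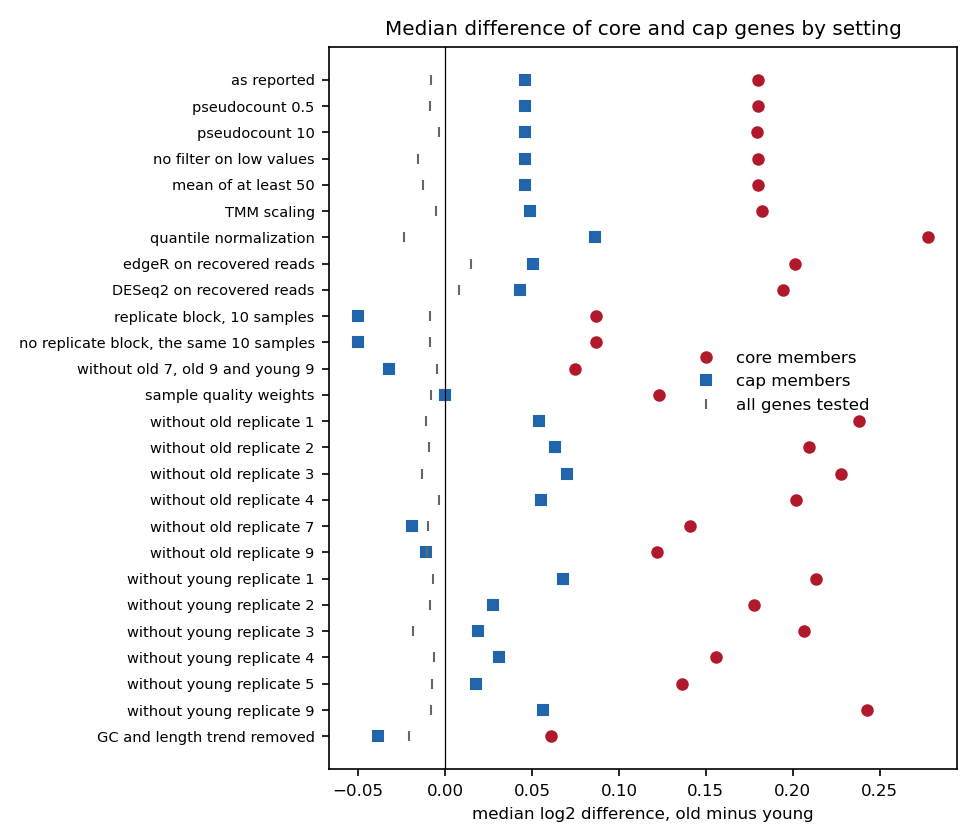
Median log2 difference (old minus young) of the 16 core genes, the 24 cap genes and all genes tested, under the reported test and each of 25 other settings. The core median stays above 0, between 0.06 and 0.28, and the cap median lies on both sides of 0, between -0.05 and 0.09.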

How the data were processed

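Per the labels' protocols, SMART-seq v4 gave the cDNA and Nextera XT the libraries. STAR 2.4.2a, Cuffdiff 2.2.1, FastQC 0.11.2, R 3.2.2 and build mm9 appear, without roles, in the submitters' processing notes. The tool, strand setting and annotation of counting were not given in the sources used here. A signal per gene, called normalized counts, is what the authors deposited, as 1 table. Each column proved to be whole reads divided by 1 size factor (100% of values whole within 0.001), proportional to median-of-ratios factors in 12 of 12 samples. Of 24015 genes 6951 were 0 throughout.

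Genes with a mean of at least 10 (12777) were compared on log2(value + 1) with limma 3.58.1 in R 4.3.3, with age as the only term and a mean-variance trend. Every adjusted p given without a tool is from it. The recovered read counts were tested with edgeR 4.0.16 (12580 genes) and DESeq2 1.42.0. The members and lists were chosen with earlier results of these data known. Genes were named by rule: all members, with full values for those called or at either end of their role group, Psmb8, Psmb9, and related genes called. Where a related list had no call, its gene of smallest p was named. Full values of Psmb7, Psme2, Psme4 and Psmg3, and Nfe2l1, Pomp and Adrm1, were added after their values were seen. Pairs of samples of one age differed beyond sampling noise (lowest chi-square per degree of freedom 34.0). Alternatives were other pseudocounts, filters, scalings and tools, a replicate block, sample weights and samples left out. Scripts were tested on simulated reads. Confidence intervals are limma's. Without a stated strand setting, overlapping genes such as AY074887 with Psma4, Nek6 with Psmb7, Sirt3 with Psmd13 and Emc9 with Psme1 may share reads. Psmb5, Psmb6 and Psmb7 have annotated pseudogenes.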

Additional observations from a re-analysis of the deposited data

Results flagged for a closer look

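In 14 of 98 groups of 6 samples checked (each of the 45 members, Psmb8, Psmb9 and the summed core and cap levels, in each age), 1 sample lay far from the rest by Dixon's test; chance gives about 1 in 20, and the genes are not independent of each other. In young 9 this held for Psma1 (5997 normalized counts, the other young samples at most 4814), Psma2 (6810, at most 4153), Psma4 (3606, at most 2664) and Psma6 (10043, at most 7403). Young 9 was likewise apart for Psmb7 (3872, at most 2765), Psmc6 (3363, at most 2273), Psmd11 (6378, at most 4445) and Psmd12 (4741, at most 3623). In old 9 it held for the interferon-inducible Psmb10 (8097, the other old samples at most 5398), Psme1 (10405, at most 6052), Psmb8 (10475, at most 6737) and Psmb9 (5224, at most 2384), and for the chaperone Psmg2 (1003, at most 757). In young 3 it held for Psmb4 (3653, at most 3024).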

How the results depend on the processing

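Over 25 other settings, 0 of 16 core and 0 of 24 cap genes passed in any, and 26 of the 45 members changed sign in at least 1 setting without passing in either direction. The call on Psmg4 kept its direction in all 25 and its threshold in 11 (log2 difference from 0.36 to 0.65). The count of members higher was 0 with no filter on low values (Psmg4 adjusted p = 0.0557), under quantile normalization (0.0925), over the 10 samples that share a title number with the replicate block (0.131) and without it (0.115), without old 7, old 9 and young 9, and with the GC and length trend removed, a setting chosen after seeing the data. Leaving out 1 sample each gave 0 to 1 members higher, 554 to 1227 genes called in all, 0 to 1 related genes higher and 0 to 1 lower. The related gene that fell, Ubqln1, was not called (count 0) under quantile normalization, in edgeR, with or without the replicate block in the 10 samples, without old 7, old 9 and young 9, and without any 1 of 8 samples (old 1, 2, 7 or 9, young 2, 3, 4 or 5; adjusted p from 0.0511 to 0.0878), and it passed in 12 of 25 settings. Over all genes 1408 were called by DESeq2, 1380 with sample quality weights and 472 in the 10 samples without the block, against 610 with it and 887 as reported. The median over all genes, -0.01, was -0.02 under quantile normalization (-0.024) and with the trend removed (-0.021), 0.015 in edgeR and 0.00802 in DESeq2, and from -0.019 to -0.0038 with 1 sample left out. Whether the title numbers pair the samples is not stated in the labels. Deviations of same-numbered samples correlated at -0.16 to 0.098, which cannot decide it. In the 10 samples, which leave out old 7 and young 5, the core median was 0.09 and the cap median -0.05 with the block and without it. The core median was 0.12 without old 9 and 0.24 without young 9; the cap median was -0.02 without old 7. Psmb8 passed in DESeq2, with sample weights and without old 3, and Psmb9 in DESeq2, with sample weights and without old 7, old 9 and young 9. With a median standard error of 0.13 over the 45 members, log2 differences well under the interval widths given were not detectable in these 12 samples.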
